A study of Mus musculus with 8 samples.

Results

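Fibroadipogenic progenitors (FAPs) sorted from the hindlimb muscle of mice with a pancreatic tumour were compared with FAPs of mice without one. The tumour-bearing mice had KPCY cells, a mouse pancreatic cancer line, injected into the pancreas in 50 µL. These cells had been transduced with a lentiviral vector carrying a scrambled sequence and kept under puromycin (2 µg/mL, 7 days), and the group is called scrambled (n = 3 libraries). The control mice had sham surgery and no cells (n = 2 libraries), so the groups differ in the tumour, the implanted cells and the vector together. All 5 mice were male C57BL/6J, and the labels give no age, tumour size, body weight or time of collection. The comparison covers the gene symbols with at least 10 reads in 2 or more of these 5 libraries, which are 13422 of the 24419 symbols in the deposited table. Of these, 13322 passed the filter on low counts that the test needs. The other 100 members, with 24 to 153 reads over the 5 libraries, were not tested. The filter looks at all 8 libraries of the series (3 more come from mice whose KPCY cells carried an inhibitor of miR-27a-3p), so 324 symbols that are no members were tested too, making 13646. The labels call the libraries biological replicates, and each p-value rests on the spread between them.

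FAPs are stromal cells between the muscle fibres that make extracellular matrix, can become adipocytes or fibroblasts, and send signals to the muscle stem cells. Single-cell studies of connective tissue describe an early progenitor state marked by Dpp4 and Pi16 and a later one marked by Cxcl14 and Col15a1. In cachexia, the loss of muscle and fat in cancer, circulating cytokines of the IL-6 family act through a receptor chain shared by the family, gp130, on JAK kinases and the transcription factor STAT3, and the adrenal glucocorticoids are often raised. Genes that these signals are known to drive include those of acute-phase proteins, of feedback inhibitors such as Socs3, and of proteins that spare glucose and break down lipid. Sterol synthesis, by contrast, is driven by the transcription factor SREBP2 (gene Srebf2) when the sterol content of the cell is low.

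Total counts ran from 15647436 to 28340450 reads per library, and no pair of libraries held identical values. Values below are CPM, counts per 1000000 reads of the library after scaling by its TMM factor, in the order sham 1 and 2 against scrambled 1, 2 and 3. Pdgfra, the FAP receptor, was present at a high level in all 5 libraries, at 1256 and 1588 against 1576, 1586 and 1519 CPM. Ly6a, the gene of the SCA-1 antigen used in the sort, stood at 951 and 933 against 451, 1136 and 436 CPM, and Cd34, a progenitor surface protein, at 2250.3 and 2156 against 213, 1179 and 241 CPM. Ptprc, the gene of the excluded CD45, stayed below 1 CPM in each of the 5 libraries. Pecam1, the gene of the excluded CD31, was present in all of them and higher in every scrambled library than in sham. The values of Pecam1 are given below with the endothelial markers. With Itga7, the gene of the excluded α7-integrin, 6 such genes were tested and 0 were called. Of the 6, 2 lay above both sham libraries in all 3 scrambled libraries and 1 below. The shares of all genes tested were 20.2% and 20.8%. The scrambled libraries were unlike each other. Along the first principal component of the 5 libraries, which held 70.1% of the variance in log2 CPM, the sham libraries lay at -70.7 and -63.8, and scrambled libraries 1, 2 and 3 at 97.8, -32.6 and 69.3. Scrambled library 2 was thus the one nearest to sham, and it was nearest for 69.7% of all genes tested. Across all genes tested, the median range of log2 CPM was 0.86 over the 3 scrambled libraries and 0.24 over the 2 sham libraries. In bulk RNA a change in the share of cells of one kind and a change in RNA per cell cannot be told apart.

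Genes that moved in the tumour-bearing mice were counted by edgeR's quasi-likelihood test, fitted across all 13646 genes with the spread shared by all 8 libraries, at an adjusted p below 0.05. By this test 150 genes rose (1.1% of those tested) and 65 fell (0.476%), together 1.58%, and all 215 are members. At an unadjusted p below 0.05 there were 3990 of the 13646, in either direction. Counts within the gene lists below are to be read against these shares of all genes tested. The values of the 2 groups did not overlap for 5600 genes (41%), of which 2757 were higher (20.2%) and 2843 lower (20.8%), among them all 215 called genes. The median log2 change of all genes tested was 0.00, and 3133 genes (23%) differed by more than 1 on the log2 scale. In the plot of mean level against change, called genes lie at all but the lowest levels, and Igfbp3 stands high among the genes not called.

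**Figure D1:**
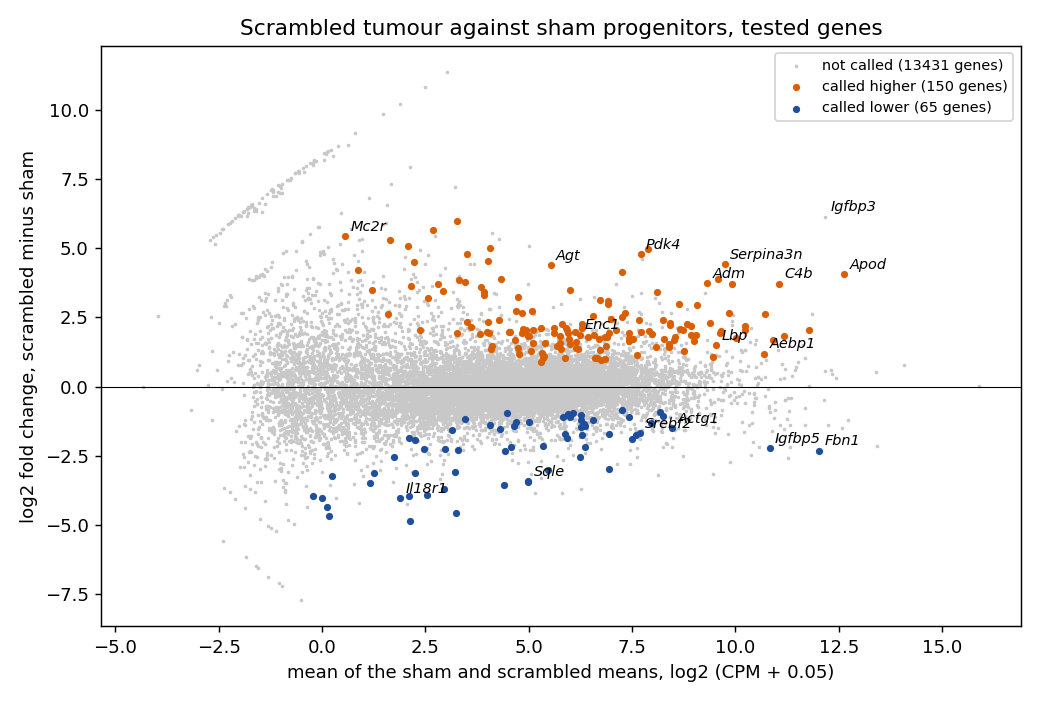
Each point is 1 of 13646 tested genes. The horizontal axis is the mean of the 2 group means as log2 (CPM + 0.05), the vertical axis the log2 fold change from sham to scrambled by edgeR; orange points are the 150 genes called higher and blue points the 65 called lower. Called genes spread over most levels, and some of the largest changes, such as that of Igfbp3 (log2 6.14), are among the genes not called.

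The size of these counts depended on which libraries entered. Left out in turn, sham library 1 left 0 calls in either direction (1711 genes at an unadjusted p below 0.05) and sham library 2 left 2, Agt and C4b. Without scrambled libraries 1 and 3 there were 57 and 45 genes higher and 10 and 4 lower. Without scrambled library 2, on the other hand, 3441 genes were called higher (25.4% of the 13547 then tested) and 3467 lower (25.6%), among them all 215. DESeq2 called 1321 higher (9.68%) and 753 lower (5.52%), also with all 215 among them. The fit also borrows its spread from the 3 knockdown libraries: without any 1 of these 7 to 12 genes were higher and 0 to 2 lower. With the 5 compared libraries alone 4 were called, Agt, C4b, Serpina3m and Serpina3n. The knockdown libraries were more alike (Spearman correlations of log2 CPM from 0.986 to 0.994) than the scrambled ones (0.921 to 0.976). Each SE and adjusted p below rests on the shared spread and may be too small for the spread of the scrambled mice. In every setting that gave them a value, the 215 genes kept the sign of their change. The values of the 2 groups did not overlap for any of the 215. Leaving out a library could therefore hardly turn a sign, and the kept signs are no separate support. A set of 36 genes, 33 higher and 3 lower, was called without each scrambled library in turn. Their call depends on no single scrambled library, but it can still depend on a sham or a knockdown library. Each call below, other than those of Agt and C4b, was lost when either sham library was left out, and those of Agt and C4b when sham library 1 was.

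Among the called genes whose level was most alike across the 3 tumour-bearing mice were an actin-binding protein, a kinase and several receptors. Enc1, a kelch protein that binds actin, stood at 33.2 and 31.3 against 106, 117 and 132 CPM (log2 change ± SE and edgeR's adjusted p, here and below: 1.87 ± 0.17, adjusted p = 0.00413). Nek6, a mitotic kinase, stood at 14.9 and 13.2 against 42.6, 54.2 and 52.7 CPM (1.83 ± 0.20, adjusted p = 0.0115). Each scrambled library was at least 2 times as high as either sham library for both genes. Aebp1, a secreted collagen-binding protein, stood at 1060.3 and 980.1 against 2216, 2264 and 2484 CPM (1.19 ± 0.20, adjusted p = 0.0300). Mc2r, the receptor for the pituitary hormone ACTH, was listed with 0 and 0.112 CPM in sham and 2.82, 2.96 and 2.64 CPM in scrambled libraries. At this low level its log2 change of 5.43 ± 1.10 depended on the few sham reads, and it was 8.83 without sham library 2 and 4.58 without sham library 1. Other genes called and even in this way included Scn7a, a sodium channel gene (1.29), Ctps, which makes CTP (1.27), Adcyap1r1, the receptor for the neuropeptide PACAP (0.97), and Ifitm1, which encodes a membrane protein that restricts viruses (2.06). Among the genes that fell evenly were Ptprj, a receptor tyrosine phosphatase (-0.95), Pilra, an inhibitory receptor gene (-3.22), and Inpp1, an enzyme of inositol phosphate recycling (-0.95). The level of Pilra was low, at 2.15 and 1.95 against 0.235, 0.211 and 0.189 CPM. Enc1 lies on chromosome 13 from 97241105 to 97253034 on the + strand and Nek6 on chromosome 2 from 38511643 to 38594606 on the + strand (GRCm38, the build named mm10).

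In IL-6 family signalling the genes called were those of receptors and targets, not of ligands. Of 13 tested genes of the family's cytokines and receptors, 2 were called higher and 0 lower, against 1.1% and 0.476% of all genes tested. The list's median log2 change was 0.47. Osmr, the oncostatin M receptor, rose in every scrambled library, from 105 and 86.5 CPM in sham to 466, 344 and 339 CPM (2.00 ± 0.22, adjusted p = 0.0120). Cntfr, the receptor for ciliary neurotrophic factor, rose from 34.2 and 44.4 to 143, 77.4 and 89.9 CPM (1.39 ± 0.28, adjusted p = 0.0484). The ligands did not pass the test: Il6 stood at 8.98 and 9.15 against 54.3, 42.9 and 14.1 CPM (2.04 ± 0.50, adjusted p = 0.0670) and Lif, another ligand, at 30.6 and 33.6 against 13.1, 16.2 and 9.32 CPM (-1.31 ± 0.30, adjusted p = 0.0610). Il6 was lower in scrambled library 3 than in the other 2 tumour-bearing mice, and Lif was below both sham values in all 3. The receptor genes Lifr, at 162 and 266 against 976, 402 and 1048 CPM (adjusted p = 0.0547), and Il6ra, at 46.2 and 47.7 against 191, 80.0 and 218 CPM (adjusted p = 0.0542), missed the threshold. Il6st, which encodes gp130, stood at 532 and 695 against 751, 777 and 730.4 CPM (log2 change 0.30 ± 0.18, adjusted p = 0.293). Osmr lies on chromosome 15 from 6813577 to 6874969 on the - strand.

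Of 19 tested STAT3 targets and feedback genes, 6 rose and 0 fell, against 1.1% and 0.476% of all genes tested, with a median log2 change of 1.19. The 6 were Stat3 itself, the feedback inhibitor Socs3, the kinase Pim1, the transcription factors Cebpd and Cebpb, and Myc. Stat3 stood at 190.4 and 177 against 599, 343 and 529.9 CPM (1.42 ± 0.25, adjusted p = 0.0372), Socs3 at 827 and 1190.0 against 4301, 2204 and 4320.3 CPM (1.84 ± 0.34, adjusted p = 0.0389) and Pim1 at 18.0 and 25.7 against 238, 88.8 and 247 CPM (3.13 ± 0.45, adjusted p = 0.0220). For each of the 3, scrambled library 2 was the lowest of the tumour-bearing mice and still above both sham libraries. Cish, another feedback inhibitor, stood at 1.20 and 1.06 against 39.5, 4.82 and 28.5 CPM and missed the threshold (adjusted p = 0.0602). Sbno2, a transcriptional co-regulator that acts downstream of IL-10 and STAT3, rose from 64.7 and 43.5 to 303, 145 and 226 CPM (2.05 ± 0.32, adjusted p = 0.0257). Arid5a, which encodes a protein that stabilises Il6 messenger RNA, rose from 8.16 and 9.65 to 76.0, 32.3 and 68.6 CPM (2.72 ± 0.37, adjusted p = 0.0194). Sbno2 and Arid5a were picked after their values were seen.

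**Figure D2:**
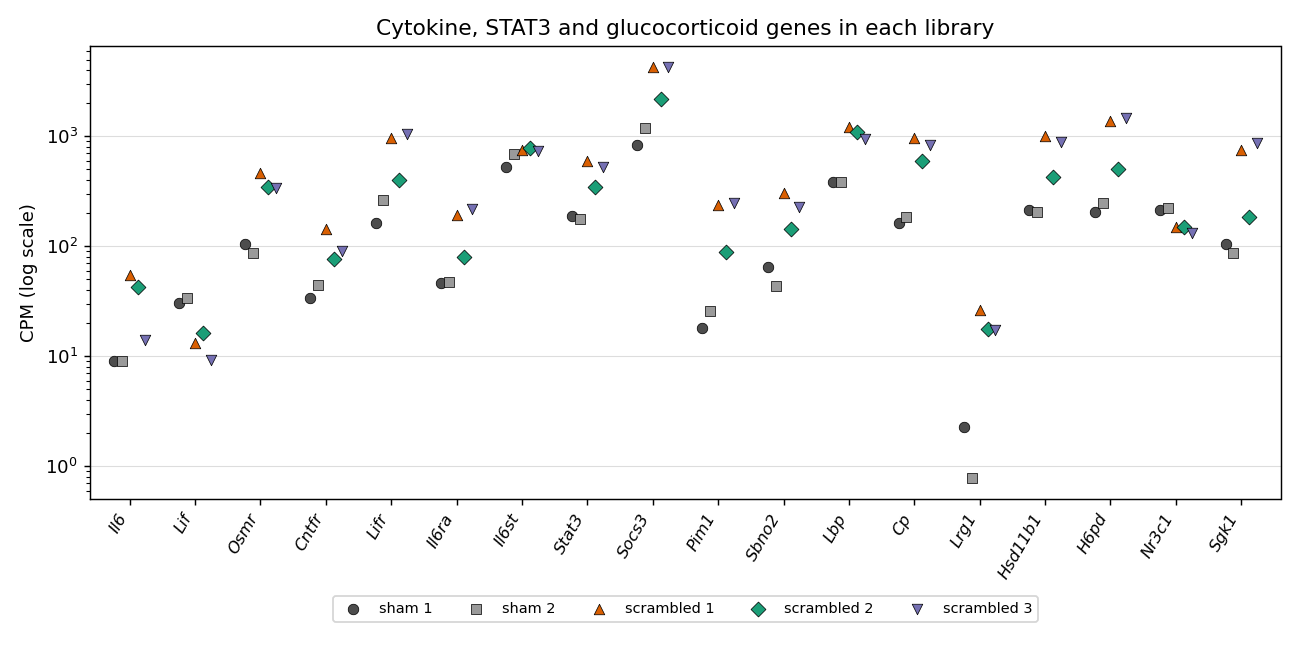
CPM on a log scale in each of the 5 libraries for genes of IL-6 family signalling, STAT3 targets, acute-phase proteins and glucocorticoid action. Markers are single libraries, grey for sham and coloured for scrambled. Il6st is nearly level, Osmr, Lbp and Cp separate all 3 scrambled libraries from sham, and Sgk1 lies close to sham in scrambled library 2 (184 CPM) and far above it in libraries 1 and 3 (754 and 877 CPM).

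The genome letters around these genes were searched for the palindrome that STAT dimers are known to bind, TTCCNGGAA, which reads alike on both strands. Among RefSeq promoter windows from 250 bases before to 50 after a gene's start (GRCm38.p6), 1.15% of all 32851 held it, and 1.32% of the 151 windows of genes called higher, a share near that of all promoters. Among the 81 windows of genes called lower, 2.47% held it. In the STAT3 target and acute-phase lists, 4 of 34 windows (11.8%) did, those of Agt, Bcl6, Cish and Steap4. That share rests on 4 genes and was not tested. Of genes called higher with a window (115 of 150), it was found in Agt and Sbno2. The stretches around these matches are printed, upstream of the start and 5′ to 3′ on the gene's strand, with the palindrome in capitals, because they are the only matches in these windows among the genes that rose. That of Agt lies at chr8:124569840-124569908 on the - strand and that of Sbno2 at chr10:80101188-80101241 on the - strand, with the matches beginning 172 and 24 bases before the start.
Agt: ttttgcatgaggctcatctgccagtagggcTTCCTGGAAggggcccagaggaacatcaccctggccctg
Sbno2: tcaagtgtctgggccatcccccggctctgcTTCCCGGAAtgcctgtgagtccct
A match is a run of letters and shows no binding. Agt, which encodes the precursor of angiotensin, was among the most even of the called genes, at 3.04 and 5.30 against 103, 81.2 and 81.4 CPM.

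Secreted acute-phase proteins, made chiefly by the liver in inflammation, were higher in the FAPs of tumour-bearing mice. Of 30 listed genes 18 could be tested, and 9 of them rose and 0 fell, against 1.1% and 0.476% of all genes tested. All 18 had a positive change, with a median log2 change of 3.88. Members near 0 in sham, such as Hp and Saa1, passed the filter on low counts only through libraries of tumour-bearing mice. Such genes could hardly show a fall, so the count of positive changes and the median are no separate support. The genes called were Agt, Serpina3n, Serpina3m, Serpina3c, Cp, Lrg1, Lcn2, Saa1 and Hp. Cp, the copper-carrying ferroxidase ceruloplasmin, stood at 163 and 186 against 974, 592 and 838 CPM (2.2 ± 0.25, adjusted p = 0.0124). Lrg1, a secreted leucine-rich glycoprotein that acts on vessels, rose from 2.28 and 0.781 to 26.4, 17.5 and 17.2 CPM (3.76 ± 0.49, adjusted p = 0.0180), and Saa1, serum amyloid A, from 0.316 and 0.167 to 9.80, 10.6 and 3.97 CPM (5.08 ± 0.84, adjusted p = 0.0264). The log2 change of Lrg1 was 4.70 without sham library 1 and 3.15 without sham library 2. All 3 scrambled libraries exceeded both sham libraries for each of these genes, and Saa1 was lowest in scrambled library 3. Lbp, which carries bacterial lipopolysaccharide to its receptor and was picked after its values were seen, had nearly equal sham values and stood at 384 and 385 against 1216, 1105 and 952 CPM (1.5 ± 0.19, adjusted p = 0.0180). Reads of the Serpina3 genes and of the Saa genes can be shared between near-identical copies, so the split within each family is uncertain.

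In the list of interleukin 1, TNF and toll-like receptor genes 1 of 21 tested rose, the adaptor gene Myd88, and 1 fell, Il18r1, with a median log2 change of -0.13. The shares of all genes tested were 1.1% and 0.476%. Il18r1, the receptor chain for interleukin 18, fell from 8.29 and 5.52 CPM in sham to 0.353, 0.592 and 0.252 CPM in scrambled libraries (-4.04 ± 0.46, adjusted p = 0.0115) and was 1 of the 3 lower genes called without each scrambled library in turn. Its ligand Il18 stood at 21.7 and 21.9 against 3.80, 12.2 and 5.98 CPM, below sham in each scrambled library, but missed the threshold (adjusted p = 0.0721). Myd88, the adaptor of the interleukin 1, interleukin 18 and toll-like receptors, rose from 62.1 and 64.3 to 156, 108 and 129 CPM (1.05 ± 0.20, adjusted p = 0.0419). Tlr4, the lipopolysaccharide receptor, stood at 39.0 and 44.1 against 83.9, 69.5 and 88.0 CPM (adjusted p = 0.0570). Among receptor genes of no list, picked after their values were seen, Csf2rb, the shared chain for GM-CSF, interleukin 3 and interleukin 5, rose from 0.949 and 0.391 to 9.80, 6.93 and 7.62 CPM (3.62 ± 0.49, adjusted p = 0.0192), or by 4.36 without sham library 1. Il17ra, a receptor chain for interleukin 17, rose from 59.5 and 64.4 to 235, 129 and 150.1 CPM (1.47 ± 0.26, adjusted p = 0.0368). Il22ra2, a soluble decoy for interleukin 22, rose from 0.886 and 0.781 to 4.94, 6.47 and 3.90 CPM (2.62 ± 0.48, adjusted p = 0.0389). The values of each of the 3 receptor genes were higher in all 3 tumour-bearing mice than in either sham mouse.

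Of 24 tested complement genes 3 rose, against 1.1% of all genes tested, and 0 fell (median log2 change 0.67): C4b, C2 and Masp1, which encodes a protease of the lectin pathway. Masp1 stood at 0.506 and 1.73 against 10.4, 9.09 and 12.7 CPM (3.21 ± 0.47, adjusted p = 0.0235), and its log2 change was 2.62 without sham library 1 and 4.37 without sham library 2. C2 stood at 36.1 and 66.2 against 267, 196 and 119.6 CPM (1.93 ± 0.37, adjusted p = 0.0441). Scrambled library 3 had the lowest C2 of the tumour-bearing mice, which still did not overlap with sham. Cd55, which protects cells from complement, stood at 354 and 290.3 against 24.4, 159.8 and 24.4 CPM and was not called (adjusted p = 0.103). Among 20 tested chemokines Cxcl13 alone was called, with a median log2 change of 0.22, and Cxcl12, which retains stem and immune cells, stood at 208 and 256 against 402, 813 and 443 CPM (adjusted p = 0.0689). None of the 28 tested genes of the interferon response list was called by edgeR, DESeq2 or limma-voom; Ifitm1, named above among the even rises, is known to be interferon-induced and is not in that list. At an unadjusted p below 0.05, 0 were higher and 2 lower, and the median log2 change was -0.30. Of 22 genes of NF-kappa-B subunits and inhibitors 0 were called by edgeR or limma-voom, 6 were higher and 0 lower by DESeq2 (9.68% and 5.52% of all genes), and 9 were higher and 1 lower at an unadjusted p below 0.05.

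Glucocorticoid targets were higher in the tumour-bearing mice, together with the enzymes that make the hormone active inside a cell. Of 26 tested genes of the receptor and its targets 8 rose and 0 fell, against 1.1% and 0.476% of all genes tested. In the list 25 had a positive change, and the median log2 change was 2.15. Hsd11b1, the enzyme that regenerates active glucocorticoid from its inactive form, stood at 213 and 204 against 999.8, 426 and 880.4 CPM (1.88 ± 0.34, adjusted p = 0.0378). H6pd, which supplies the NADPH for that reaction and was picked after its values were seen, stood at 206 and 246 against 1367, 506 and 1455 CPM (2.29 ± 0.42, adjusted p = 0.0389). For both genes scrambled library 2 lay between sham and the other tumour-bearing mice. The receptor gene Nr3c1 was lower in each scrambled library, at 212 and 224 against 149, 151 and 132 CPM, but was not called (-0.60 ± 0.16, adjusted p = 0.0763). The well-known targets Fkbp5, Tsc22d3 and Sgk1 missed the threshold as well, with adjusted p of 0.0763, 0.0569 and 0.0547. Fkbp5, a chaperone that restrains the receptor, stood at 122 and 131 against 545, 171 and 428 CPM, Tsc22d3, an anti-inflammatory target, at 327 and 281 against 1203, 518 and 1178 CPM and Sgk1, a kinase, at 106 and 86.2 against 754, 184 and 877 CPM. Their scrambled values were again lowest in library 2. The targets that were called included Gadd45g, a stress protein, at 148 and 137 against 577, 354 and 486 CPM (1.73 ± 0.24, adjusted p = 0.0194), and Klf9, a transcription factor, at 175 and 159 against 885, 336 and 837 CPM (2.04 ± 0.38, adjusted p = 0.0419). The list shares Lcn2, Cebpd and Pdk4 with others described here.

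Genes of nutrient sensing and muscle wasting were uneven among the tumour-bearing mice. FOXO targets, atrogenes (genes switched on in wasting muscle) and autophagy genes had a median log2 change of 1.16 over 29 tested members. Yet only 1 rose and 0 fell, against 1.1% and 0.476% of all genes tested. The gene called was Bnip3, a mitophagy receptor, at 8.67 and 12.3 against 175, 28.3 and 147 CPM (3.48 ± 0.69, adjusted p = 0.0482). Over the 3 scrambled libraries the median of the list relative to sham was 1.65, 0.24 and 1.44 on the log2 scale. Fbxo32, the ubiquitin ligase atrogin-1, was at 18.7 and 18.7 against 73.0, 22.2 and 79.7 CPM (adjusted p = 0.0919). The insulin receptor gene Insr stood at 43.6 and 59.9 against 166, 68.5 and 193 CPM and the insulin receptor substrate gene Irs2 at 57.9 and 79.1 against 285, 102 and 354 CPM, with adjusted p of 0.0788 and 0.0689. For all 3, scrambled library 2 was close to sham while libraries 1 and 3 were higher. Without scrambled library 2, 23 of the 29 members were called higher and 2 lower, where 25.4% and 25.6% of all genes were. DESeq2 called 17 higher and 0 lower, where it called 9.68% and 5.52% of all genes.

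Among fuel genes, Pdk4 and Cd36 rose, and no glycolysis gene was called. Pdk4, the kinase that shuts the entry of pyruvate into the mitochondrion, stood at 13.6 and 15.7 against 519.9, 48.0 and 643 CPM (4.78 ± 0.95, adjusted p = 0.0482), with scrambled library 2 far below the other tumour-bearing mice. It was the 1 gene called higher, with 0 lower, among 27 of pyruvate and fatty acid oxidation (median log2 change 0.15). Of 24 genes of lipid uptake and storage 3 rose and 1 fell, against 1.1% and 0.476% of all genes tested, with a median of 0.87. Cd36, the fatty acid transporter, stood at 23.7 and 21.4 against 102, 63.2 and 126 CPM (2.11 ± 0.32, adjusted p = 0.0252), and Plin4, a lipid droplet coat protein, at 1.14 and 3.18 against 20.1, 18.8 and 41.1 CPM (3.59 ± 0.59, adjusted p = 0.0300). Angptl4, which inhibits lipoprotein lipase, rose from 25.2 and 7.70 to 255, 141 and 469 CPM, and Mgll, which splits monoglycerides, fell from 97.0 and 78.1 to 31.2, 51.1 and 41.8 CPM (-1.08 ± 0.22, adjusted p = 0.0480). Without sham library 1 the log2 change of Angptl4, 4.14, was 5.22, and without sham library 2 it was 3.50 and that of Plin4 4.52. Lpl, lipoprotein lipase itself, was higher in every scrambled library at 566 and 692 against 1394, 1089 and 1441 CPM and just missed the threshold (adjusted p = 0.0516). Of 25 glycolysis and transport genes 0 were called by edgeR, and limma-voom called 0 higher and 1 lower. At an unadjusted p below 0.05, 8 were higher and 8 lower, where 3990 of all 13646 genes passed in either direction. DESeq2 called 6 higher and 3 lower, where it called 9.68% and 5.52% of all genes. Of 36 nuclear-encoded genes of oxidative phosphorylation 0 were called by any of the 3 tools, with 0 higher and 2 lower at an unadjusted p below 0.05.

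Genes of sterol synthesis and the gene of their driver, Srebf2, were low in the tumour-bearing mice, and 4 of these, Srebf2 included, passed the test. Of 31 tested genes of cholesterol synthesis, uptake and efflux 4 fell and 1 rose, against 0.476% and 1.1% of all genes tested. In the list 22 had a negative change and 19 lay below both sham libraries in all 3 tumour-bearing mice, against 20.8% of all genes tested. The median log2 change was -1.53. Scrambled library 2 lay close to the other tumour-bearing mice here: the list's median relative to sham was -1.70, -1.24 and -1.28 in scrambled libraries 1, 2 and 3. Srebf2, which encodes the driver SREBP2, stood at 273 and 353 against 91.4, 118 and 84.1 CPM (-1.68 ± 0.24, adjusted p = 0.0206). Sqle, squalene epoxidase, had almost the same value in each tumour-bearing mouse, at 32.3 and 84.3 against 5.45, 5.54 and 5.29 CPM (-3.42 ± 0.52, adjusted p = 0.0252). Hmgcs1, the cytosolic synthase that makes HMG-CoA, stood at 64.1 and 193 against 23.4, 28.8 and 13.4 CPM (-2.55 ± 0.50, adjusted p = 0.0452), and Mvd, mevalonate decarboxylase, at 9.80 and 22.4 against 2.55, 3.89 and 3.53 CPM (-2.29 ± 0.44, adjusted p = 0.0444). In each case except Srebf2 sham library 2 was more than 2 times sham library 1, so the size of the fall depends on the sham mouse; without sham library 2 the log2 changes of Sqle, Hmgcs1 and Mvd were -2.58, -1.55 and -1.58, and without sham library 1 that of Hmgcs1 was -3.13. Further steps missed the threshold with values below sham in all 3 tumour-bearing mice: Idi1 at 3.23 and 8.93 against 0.509, 1.44 and 0.315 CPM, Fdps at 38.8 and 80.3 against 3.29, 13.4 and 3.15 CPM and Fdft1 at 22.8 and 77.0 against 11.2, 7.95 and 12.3 CPM (adjusted p = 0.0542, 0.0578 and 0.0700). Apoe, which carries lipid out of cells, rose from 70.5 and 120.5 to 649, 425 and 466 CPM (2.43 ± 0.32, adjusted p = 0.0183). Fatty acid synthesis was less clear: 0 of 22 genes were called by edgeR or limma-voom, and 3 were higher and 11 lower at an unadjusted p below 0.05. DESeq2 called 2 higher and 5 lower, where it called 9.68% and 5.52% of all genes. There Scd2, a desaturase, stood at 296 and 708 against 73.7, 126 and 131 CPM (adjusted p = 0.0547). On the + strand of chromosome 15, Sqle spans 59315077 to 59331192 and Srebf2 spans 82147181 to 82205379.

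**Figure D3:**
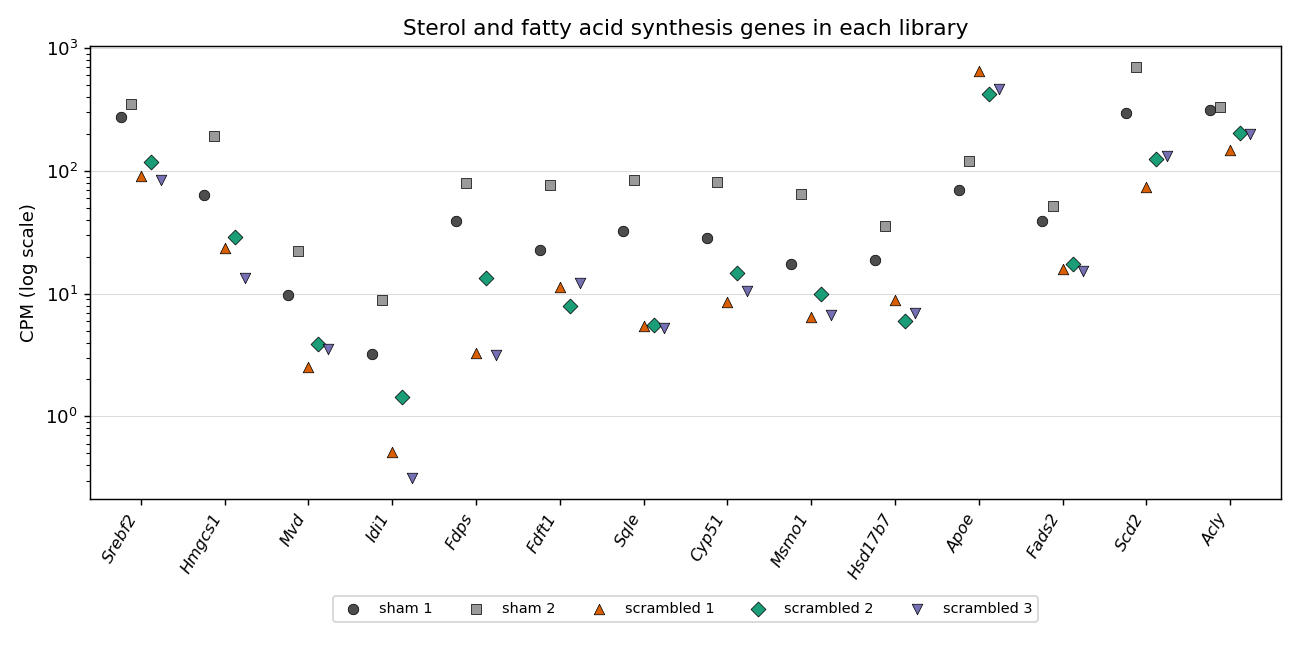
CPM on a log scale in each library for genes of sterol and fatty acid synthesis, with single libraries as markers. From Srebf2 to Hsd17b7 all 3 scrambled libraries lie below both sham libraries, with sham library 2 above sham library 1, while Apoe runs the other way.

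The sterol regulatory element that SREBP proteins are known to bind was searched as TCACNCCAC on both strands of the same promoter windows, as an element of the path just described. It stood in 1.24% of all 32851 windows and in 4.94% of the 81 windows of genes called lower (4 genes, Camk1d, Filip1l, Hmgcs1 and Kcp). It also stood in 5.88% of the 34 windows of the STAT3 target and acute-phase lists. Of the 24 cholesterol genes with a window it was found in Hmgcs1 alone. The stretch at chr13:119690184-119690252 on the + strand is printed with the element in capitals, beginning 137 bases before the start, because it is the one of these 4 genes that stands in the cholesterol list.
Hmgcs1: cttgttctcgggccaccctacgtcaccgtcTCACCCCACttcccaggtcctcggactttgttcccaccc
No match elsewhere says only that these letters were not in those windows.

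Most matrix genes had negative changes, few of them past the test, and some rose. Of 31 tested collagens 1 fell and 0 rose, against 0.476% and 1.1% of all genes tested. In the list 24 had a negative change, and the median log2 change was -1.30. By library, the median relative to sham was -1.42, -0.46 and -2.44 in scrambled libraries 1, 2 and 3. The gene called was Col18a1, the source of endostatin, at 321 and 253 against 69.0, 117 and 44.1 CPM (-1.90 ± 0.35, adjusted p = 0.0389). Col3a1, a fibrillar collagen, stood at 22477 and 13185 against 990.1, 10123 and 974 CPM and Col6a2, a microfibrillar one, at 5258 and 3231 against 287, 1501 and 315 CPM, with adjusted p of 0.156 and 0.0706. In scrambled libraries 1 and 3 Col3a1 was more than 10 times lower than in sham, and in library 2 it was near the lower sham value. Among collagens DESeq2 called 11 lower and 0 higher (5.52% and 9.68% of all genes), and without scrambled library 2 edgeR called 18 lower and 4 higher (25.6% and 25.4% of all genes).

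Of 28 collagen-modifying enzymes 1 rose and 0 fell, with a median log2 change of -0.73. The shares of all genes tested were 1.1% and 0.476%, for this list and the others of the paragraph. The one that rose was Lox, the copper enzyme that crosslinks collagen and elastin, at 118 and 154 against 2274, 655 and 2456 CPM (3.72 ± 0.54, adjusted p = 0.0232), whereas its relative Loxl2 stood at 613 and 414 against 73.9, 229.5 and 69.9 CPM (adjusted p = 0.0599). Fbn1, fibrillin, the backbone of elastic microfibrils, fell from 7159.6 and 6760.0 to 802, 2534 and 869.7 CPM (-2.31 ± 0.46, adjusted p = 0.0466, or -3.05 without scrambled library 2) as the one gene called of 20 elastic fibre genes (median log2 change -0.82). Of 37 proteoglycans and other matrix glycoproteins 2 rose and 0 fell, with a median of -0.51. They were Ctgf, a matricellular protein, at 307 and 193 against 1911, 971 and 1879 CPM (2.67 ± 0.40, adjusted p = 0.0236), and Thbs2, a thrombospondin, at 393 and 487 against 2356, 908 and 2687 CPM (2.17 ± 0.42, adjusted p = 0.0452). Dcn, decorin, was above both sham values in each scrambled library at 11101 and 14630.4 against 24984, 19625 and 21059 CPM but was not called (adjusted p = 0.121). Among matrix genes picked after their values were seen or for their level, Svep1, a large adhesion protein, stood at 875 and 947 against 3242, 2188 and 3375 CPM (1.69 ± 0.25, adjusted p = 0.0232) and Prg4, the lubricant of joints and tendons, at 340.3 and 298 against 1219, 878 and 1805 CPM (2.03 ± 0.35, adjusted p = 0.0363).

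**Figure D4:**
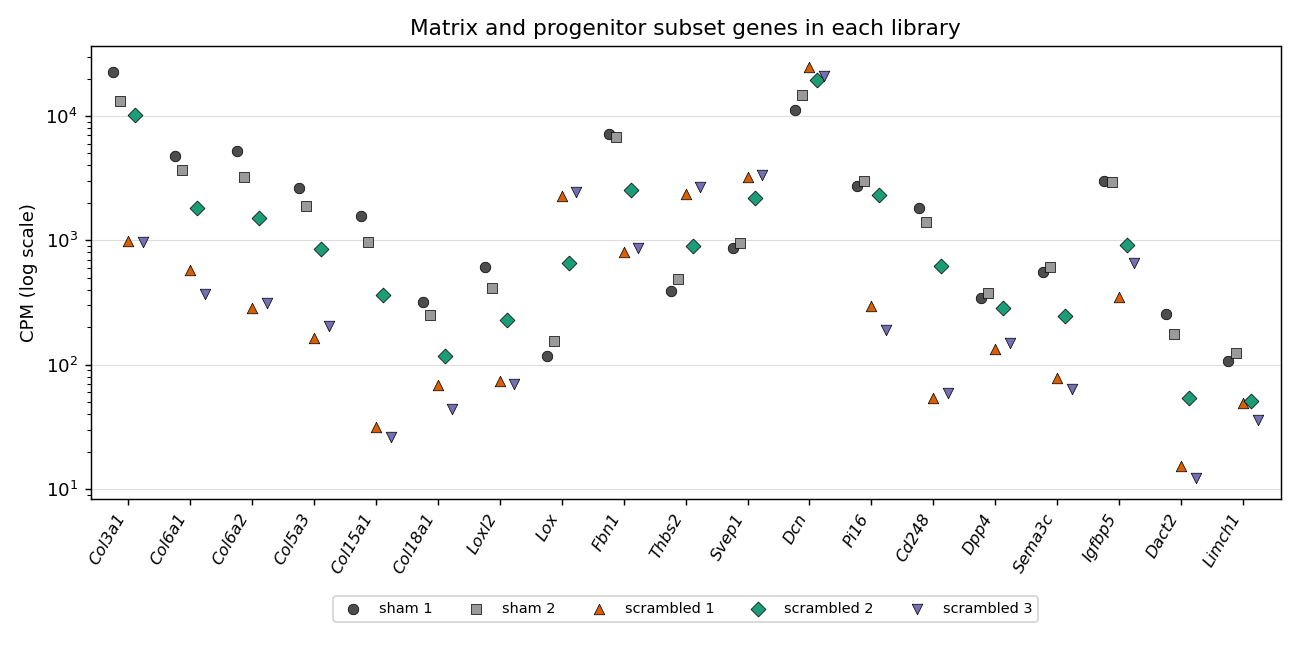
CPM on a log scale in each library for matrix genes and for genes of the Dpp4 Pi16 state, with single libraries as markers. Collagens and subset markers are lowest in scrambled libraries 1 and 3, with library 2 between them and sham; Lox, Thbs2 and Svep1 are higher in all 3 scrambled libraries than in sham, and Limch1 is alike in all 3.

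Of 31 metalloproteinase and inhibitor genes 1 rose and 1 fell, with a median log2 change of 0.05. The shares of all genes tested were 1.1% and 0.476%, for this list and for the cathepsins below. Mmp11, stromelysin-3, stood at 43.1 and 50.7 against 284, 231 and 1012 CPM (3.44 ± 0.64, adjusted p = 0.0415), highest in scrambled library 3 and with a log2 change of 2.46 without it. Adamts12, a matrix protease, stood at 124 and 116 against 38.2, 62.0 and 33.0 CPM (-1.43 ± 0.27, adjusted p = 0.0419). Mmp3, at 36.6 and 36.3 against 207, 350.3 and 72.2 CPM, and the membrane protease Mmp14, at 600.3 and 703 against 1813, 1010.5 and 2015 CPM, were higher in each scrambled library and missed the threshold (adjusted p = 0.0610 and 0.0589). Of 15 cathepsins and cystatins 2 rose and 0 fell, with a median of 0.51: Ctsk, the collagen-degrading cathepsin K, at 179.9 and 166 against 591, 372 and 540.2 CPM (1.54 ± 0.24, adjusted p = 0.0257), and Lgmn, legumain, at 44.5 and 33.9 against 96.5, 187 and 119 CPM (1.78 ± 0.29, adjusted p = 0.0291). The list's median was nearly the same in the 3 scrambled libraries, at 0.62, 0.49 and 0.54.

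Markers of the early progenitor state named for Dpp4 and Pi16 had negative changes without exception among the 25 tested, with a median log2 change of -1.61. Of these markers 5 fell and 0 rose, against 0.476% and 1.1% of all genes tested. The 5 were Limch1, Igfbp5, Dact2, Gap43 and Fbn1. Limch1, an activator of non-muscle myosin, was the most even, at 107 and 124 against 49.4, 51.2 and 36.1 CPM (-1.34 ± 0.20, adjusted p = 0.0247). Igfbp5, which binds insulin-like growth factors, stood at 3029 and 2958 against 353, 921 and 656 CPM (-2.22 ± 0.35, adjusted p = 0.0265), and Dact2, an inhibitor of Wnt and TGF-beta signalling, at 258 and 177 against 15.5, 54.4 and 12.3 CPM (-2.98 ± 0.54, adjusted p = 0.0378). None of their scrambled values reached a sham value. The name-giving genes were not called: Pi16, a secreted peptidase inhibitor, stood at 2722 and 2974 against 295, 2305 and 189 CPM and Dpp4, a surface peptidase, at 342 and 381 against 133, 287 and 149 CPM (adjusted p = 0.223 and 0.106). Cd248, endosialin, stood at 1815 and 1411 against 54.3, 624 and 59.0 CPM and Sema3c, a semaphorin, at 556 and 611 against 78.0, 246 and 64.3 CPM (adjusted p = 0.106 and 0.0581). Scrambled library 2 was nearest to sham for these 4 genes, and without it 24 of the 25 were called lower, as were 25.6% of all genes; the log2 change of Dact2 was then -3.95. The list named for Cxcl14 and Col15a1 had 14 positive and 11 negative changes, with a median of 0.20. In it 3 genes rose, Apod, Hsd11b1 and Cygb, and 0 fell, while Col15a1 itself stood at 1567 and 963 against 31.5, 364 and 26.4 CPM (adjusted p = 0.0966). Apod, a lipocalin that carries lipids, stood at 447 and 992 against 13972, 5463 and 16485 CPM (4.06 ± 0.57, adjusted p = 0.0206), with a log2 change of 4.73 without sham library 2.

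**Figure D5:**
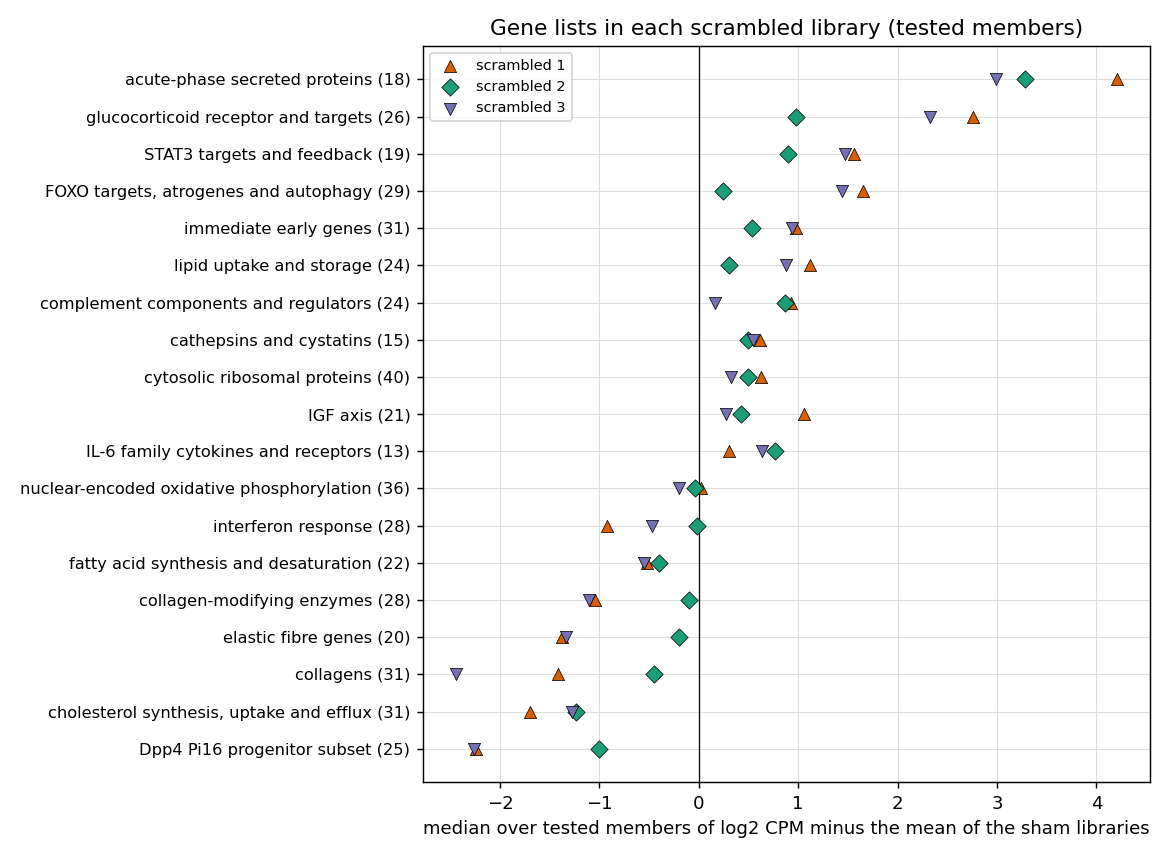
For 19 gene lists, the median over tested members (their number in parentheses) of log2 CPM in each scrambled library minus the mean of the sham libraries. Scrambled library 2 lies nearer to 0 than libraries 1 and 3 for glucocorticoid, FOXO, collagen and Dpp4 Pi16 genes, and close to them for cholesterol genes and cathepsins.

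Growth factors and their receptors moved in both directions. In the activin, myostatin, BMP and GDF list 2 of 33 genes rose and 1 fell, against 1.1% and 0.476% of all genes tested. Inhbb, the subunit of activin B, rose from 24.5 and 22.5 to 67.0, 97.1 and 129.9 CPM (2.06 ± 0.33, adjusted p = 0.0265), and Acvr1b, an activin receptor, from 9.87 and 18.0 to 64.2, 36.7 and 47.0 CPM (1.82 ± 0.32, adjusted p = 0.0375). Inhba, the subunit of activin A, fell from 10.8 and 7.53 to 1.41, 3.09 and 1.13 CPM (-2.24 ± 0.44, adjusted p = 0.0454). All 3 separated the groups in every library. Bmp4 stood at 112 and 102 against 574, 192 and 373 CPM and Bmp7 at 32.1 and 31.0 against 6.58, 15.9 and 6.36 CPM, in opposite directions and just short of the threshold (adjusted p = 0.0547 and 0.0576). Kcp, a secreted modulator of BMP and activin signals that was picked after its values were seen, fell from 194 and 183 to 59.6, 73.7 and 40.2 CPM (-1.70 ± 0.24, adjusted p = 0.0200). None of 25 genes of TGF-beta ligands, receptors and response was called by edgeR, limma-voom called 1 higher, and 5 were higher and 3 lower at an unadjusted p below 0.05. DESeq2 called 3 higher and 0 lower, where it called 9.68% and 5.52% of all genes.

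Of 37 FGF, PDGF and VEGF genes 3 rose and 1 fell, against 1.1% and 0.476% of all genes tested, with a median log2 change of 0.22. Figf, which encodes the lymphatic growth factor VEGF-D, stood at 36.7 and 53.9 against 288, 161 and 337 CPM (2.53 ± 0.33, adjusted p = 0.0180). Nrp2, a co-receptor for lymphatic growth factors, stood at 25.6 and 33.3 against 102, 54.9 and 134 CPM (1.72 ± 0.35, adjusted p = 0.0488). Ccbe1, a protein needed for lymphatic growth and picked after its values were seen, stood at 31.8 and 50.2 against 104, 91.2 and 124 CPM (1.37 ± 0.26, adjusted p = 0.0441). The other gene that rose is Angptl4, given above. Fgf1 fell from 71.1 and 44.9 to 2.39, 10.9 and 2.08 CPM (-3.46 ± 0.58, adjusted p = 0.0316), with scrambled library 2 the highest of the tumour-bearing mice, and its log2 change was -4.66 without that library.

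Secreted factors acting on vessels and muscle included 3 that rose and 2 that fell of 28 tested, against 1.1% and 0.476% of all genes tested. Adm, the vasodilator adrenomedullin, stood at 92.0 and 85.7 against 1579, 668 and 1328 CPM (3.75 ± 0.41, adjusted p = 0.0115), and Edn1, the vasoconstrictor endothelin, at 27 and 24.2 against 98.5, 74.8 and 124 CPM (1.95 ± 0.26, adjusted p = 0.0188). Gas6, a ligand of the TAM receptors that clear dead cells, stood at 299 and 353 against 1583, 1068 and 1098 CPM (1.94 ± 0.25, adjusted p = 0.0180). The 3 were higher in every scrambled library and all belong to the 36 genes called without each scrambled library in turn. Wnt5a fell from 70.2 and 95.3 to 38.9, 47.8 and 38.3 CPM (-0.99 ± 0.19, adjusted p = 0.0460), and Inhba, given above, was the other. Rasa3, which switches off Ras and Rap and was picked after its values were seen, rose from 74.1 and 106 to 838, 370.1 and 919 CPM (2.98 ± 0.40, adjusted p = 0.0188).

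In the IGF axis 1 of 21 genes fell, Igfbp5, and 0 rose, against 0.476% and 1.1% of all genes tested. Of these 21, 9 were higher and 4 lower at an unadjusted p below 0.05, and 0 higher and 1 lower by limma-voom. By DESeq2 8 were higher and 3 lower, where it called 9.68% and 5.52% of all genes. The largest change of the list was that of Igfbp3, the main carrier of insulin-like growth factors, which stood at 79.1 and 180.2 against 14743, 552 and 12088 CPM and had a log2 change of 6.14 ± 1.26. It was above sham in all 3 tumour-bearing mice but more than 20 times lower in scrambled library 2 than in the others, and it was not called (adjusted p = 0.0520). Igfbp6 stood at 1876 and 1558 against 1104, 1098 and 1009 CPM (adjusted p = 0.0796), nearly level among the tumour-bearing mice. Ghr, the growth hormone receptor gene, stood at 34.8 and 55.0 against 112, 69.4 and 110.5 CPM (adjusted p = 0.0668).

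Of 35 axon guidance and neurotrophic genes 3 fell, Pthlh, Robo1 and Gap43, and 0 rose (median log2 change -0.51), against 0.476% and 1.1% of all genes tested. Robo1, a Slit receptor, stood at 98.7 and 141 against 26.7, 52.0 and 28.4 CPM (-1.74 ± 0.30, adjusted p = 0.0363). Pthlh, parathyroid hormone-related protein, was below 5 CPM in each tumour-bearing mouse, at 46.6 and 32.1 against 3.57, 4.82 and 1.20 CPM, and Gap43, a growth-cone protein, was at 15.4 and 13.2 against 0.196, 2.79 and 0.0630 CPM, with a log2 change of -3.71 that became -6.56 without scrambled library 2. Single genes of the cytoskeleton, picked for naming after their values were seen except Myh10 and Dbn1, fell too. They included Actg1, a cytoplasmic actin, at 591 and 463 against 164, 239 and 152 CPM (-1.51 ± 0.23, adjusted p = 0.0248), and Flnc, a filamin, at 384 and 319 against 113, 159 and 157 CPM (-1.30 ± 0.20, adjusted p = 0.0248). Their scrambled values were all below sham. Myh10, a non-muscle myosin, and Dbn1, the actin-binding protein drebrin, were even among the tumour-bearing mice, at 182 and 210.2 against 116, 108 and 106 CPM and at 496 and 326 against 203, 178 and 205 CPM (-0.83 ± 0.16 and -1.07 ± 0.20). In the list of contractile and adhesion genes 1 of 34 rose (Tmod1) and 1 fell (Myh10), with a median log2 change of -0.30. Among adhesion and contact genes picked after their values were seen, Itga9, an integrin chain, fell from 125 and 138 to 50.8, 73.3 and 47.4 CPM (-1.21 ± 0.21, adjusted p = 0.0368) and Jag1, a Notch ligand, from 109.6 and 115 to 34.2, 54.5 and 33.9 CPM (-1.46 ± 0.22, adjusted p = 0.0247).

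Transcription factors and cell-state genes that rose included early-response, clock and stress genes. Of 31 immediate early genes 5 rose and 0 fell, with a median log2 change of 0.89: Ier3, Myc, Socs3, Fosl2 and Ier5. The shares of all genes tested were 1.1% and 0.476%, for this list and the others of the paragraph. Immediate early genes also respond to the dissociation of tissue before a sort, and that part was not tested. Fosl2, an AP-1 subunit, stood at 222 and 279 against 1066, 476 and 798 CPM (1.64 ± 0.32, adjusted p = 0.0455). Of 23 clock genes 3 rose and 0 fell, Per2, Cry1 and Nfil3, with a median of 0.49. Nfil3, a repressor that works against the clock's PAR factors, stood at 33.7 and 54.4 against 386, 232 and 217 CPM (2.66 ± 0.34, adjusted p = 0.0180) and Cry1, a clock repressor, at 11.3 and 12.7 against 75.3, 27.1 and 45.9 CPM (2.04 ± 0.41, adjusted p = 0.0476). The labels give no time of day. Of 28 genes of p53, Gadd45 and CDK inhibitors 4 rose and 0 fell: Gadd45a, Gadd45b, Gadd45g and the antiproliferative gene Btg1. Of 38 mesenchymal transcription factors 1 rose and 0 fell. It was Runx1, at 6.39 and 6.64 against 22.5, 32.4 and 21.5 CPM (1.97 ± 0.28, adjusted p = 0.0206), a factor best known from blood formation. Mitf, a regulator of lysosome genes, stood at 21.1 and 34.9 against 124, 67.5 and 142 CPM (1.99 ± 0.34, adjusted p = 0.0363), and its known target Gpnmb at 95.3 and 154 against 1115, 484 and 1284 CPM (2.94 ± 0.45, adjusted p = 0.0252). Both were picked after their values were seen. Bmf, which promotes cell death, rose from 20.6 and 20.4 to 80.4, 56.6 and 96.8 CPM (1.93 ± 0.25, adjusted p = 0.0180), and Bcl2, which opposes it, from 14.4 and 24.0 to 109, 49.6 and 120.0 CPM (2.27 ± 0.41, adjusted p = 0.0389), likewise picked.

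Ribosomal protein genes had small positive changes. Of 40 tested, 39 had a positive change and 35 were above both sham libraries in all 3 tumour-bearing mice, against 20.2% of all genes tested, and the median log2 change was 0.49. None was called by edgeR or limma-voom, 20 were higher and 0 lower by DESeq2 (9.68% and 5.52% of all genes), and 27 were higher and 0 lower at an unadjusted p below 0.05. Rps9 stood at 519 and 522 against 941, 803 and 749.9 CPM (adjusted p = 0.0824). By library the median relative to sham was 0.63, 0.49 and 0.32. Of 28 genes of ribosome biogenesis and RNA polymerase I 1 rose, Myc, and 0 fell, with a median of 0.57. The shares of all genes tested were 1.1% and 0.476%, for this list and the next. Metallothioneins, iron and antioxidant genes had 1 of 30 called higher and 0 lower. The gene was Gpx3, the secreted glutathione peroxidase, at 1277 and 1511 against 6208, 4154 and 6748 CPM (2.03 ± 0.28, adjusted p = 0.0194). Mt1 and Mt2, metallothioneins, stood at 261 and 362 against 2892, 669 and 1276 CPM and at 461 and 526 against 3892, 1187 and 1423 CPM (adjusted p = 0.0599 and 0.0602), highest in scrambled library 1. Xdh, xanthine dehydrogenase, and Inmt, a methyltransferase of indolethylamines, rose to 1718, 889.8 and 2216 CPM from 422 and 525 and to 3859, 1324 and 3564 CPM from 333 and 606, with log2 changes of 1.76 ± 0.35 and 2.63 ± 0.52. Xdh was picked after its values were seen.

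Markers of blood and immune cells, of muscle fibres and of adipocytes were low in sum, but most of those tested had a positive change. Those of vessel-associated cells and tendon were not low. The 18 muscle fibre markers summed to 41.3 and 88.7 CPM in sham and 102, 117 and 358 CPM in scrambled libraries, and the 12 mature adipocyte markers to 69.1 and 60 against 291, 105 and 279 CPM. No member of either list was called by edgeR or limma-voom. Of the muscle fibre markers 16 of 17 tested had a positive change (median log2 change 1.10). All 8 tested adipocyte markers did, with medians relative to sham of 2.68, 1.32 and 2.71 in scrambled libraries 1, 2 and 3. Markers near 0 in sham can pass the filter on low counts only through other libraries, which favours a positive change. By DESeq2 5 and 5 were higher and 0 lower, and at an unadjusted p below 0.05, 5 of 17 and 6 of 8 tested. The share of all genes by DESeq2 was 9.68% higher and 5.52% lower, here and for the marker lists that follow. At that unadjusted p, 3990 of all 13646 genes passed in either direction. Fabp4, at 55.3 and 40 against 221, 75.2 and 215 CPM, made up most of the adipocyte sum, and Adipoq, the adipocyte hormone, stayed below 1 CPM while Lep was at 0 in all 5 libraries. Of 14 macrophage markers the sum was 27.5 and 22.2 against 51.7, 30.4 and 31.5 CPM, and 9 of 12 tested had a positive change (median 0.54). Of 12 neutrophil markers, the 11 present in the deposited table summed to 5.50 and 0.335 against 20, 10.1 and 4.72 CPM. All 7 tested had a positive change (median 1.37). Of 11 lymphocyte markers, the 9 present in the deposited table stayed below 1 CPM in sum in each library, with Cd3e and Cd8a at 0. Red blood cell markers summed to 0.506 and 1.67 against 7.88, 5.66 and 26.9 CPM, with the globins Hba-a1, Hba-a2, Hbb-bs and Hbb-bt at 0. Epithelial markers ran from 90.0 to 113 CPM in sham and from 66.7 to 78.7 CPM in scrambled libraries. Endothelial markers ran from 553 to 585 and from 445 to 583 CPM, with Tek the highest of them, at 392 and 412 against 201, 291 and 216 CPM. Of the 12, 10 had a positive change (median log2 change 0.78); none was called by edgeR or limma-voom, DESeq2 called 3 higher and 1 lower, and 5 were higher and 1 lower at an unadjusted p below 0.05. Without scrambled library 2 edgeR called 7 higher and 1 lower (25.4% and 25.6% of all genes). Pecam1, a defining marker and the gene of the CD31 excluded in the sort, stood at 29.9 and 20.2 against 73.0, 37.7 and 56.2 CPM (adjusted p = 0.0802). Pericyte and smooth muscle markers summed to 676 and 674 against 612, 738 and 817 CPM, mostly from Pdgfrb, which FAPs express as well. Of these 11, 9 had a positive change (median 0.91) and none was called by edgeR; limma-voom called 0 higher and 1 lower, DESeq2 4 higher and 1 lower, and 5 were higher and 2 lower at an unadjusted p below 0.05. Tenocyte markers, which overlap with matrix genes, summed to 2364 and 3905 against 4102, 4092 and 4792 CPM, of which the immediate early gene Egr1 gave 1634 and 2645 against 3328, 3151 and 4119.6 CPM. In that list 10 of 12 had a negative change (median -1.46), and none was called by edgeR, DESeq2 calling 1 higher and 4 lower and limma-voom 0, with 1 higher and 4 lower at an unadjusted p below 0.05. The called genes that also stand in such lists were Sdc4 (muscle stem cell list), at 85.1 and 85.8 against 494, 173 and 340.2 CPM, and Ncam1 (Schwann cell list), at 11.0 and 15.6 against 4.62, 4.82 and 3.90 CPM. The 12 muscle stem cell markers summed to 197 and 200 against 535, 291 and 409 CPM, with Sdc4 most of each scrambled sum. In that list 4 of 6 tested had a positive change (median 1.02). The part of these cells in the lipid, muscle, vessel and matrix gene changes above was not tested.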

How the data were processed

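RNA was measured in 8 libraries of sorted hindlimb FAPs (CD31, CD45, α7-integrin and propidium iodide negative, SCA-1 and Hoechst positive), prepared as stranded mRNA libraries and read as pairs of 59 bases, per the labels' protocols. The authors deposited raw counts, whole reads per gene symbol; per the submitters' processing notes the build was mm10 and the tools, listed without their roles, were STAR, R 4.2.1, Bowtie, DESeq2 1.36.0 and bcl2fastq 2.20. Neither the counting tool nor its strand setting is named in the sources used here, so overlapping genes on opposite strands may share reads. Coordinates come from GENCODE M21, to which 95.46% of symbols matched once; 25 symbols had been turned into dates.

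Counts were filtered with filterByExpr (minimum count 10, total 15), scaled by TMM and fitted with edgeR 4.0.16 (R 4.3.3, quasi-likelihood, robust) with 3 group means over 8 libraries; two-sided p-values took a Benjamini-Hochberg adjustment over every gene tested. A standard error is the absolute log2 change over the root of its F statistic. DESeq2 1.42.0 and limma-voom (limma 3.58.1) were alternatives, and the fit was tested on simulated data. Reads carry no molecular identifiers, so a read is not a molecule.

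The members and lists were chosen with earlier results of these data known. Genes named by rule were the 15 largest rises and the 15 largest falls among called genes with a mean of at least 5 CPM in the higher group. With no floor on the level, the rule also took the called genes with the 10 smallest p, the 10 highest levels and the 20 most even. Of each list it took the called members and up to 4 with the smallest p. Only part of these are printed, and others are marked as picked after their values were seen. Some genes are not reported here and were left out of the gene lists; they stayed in the fit and its overall counts.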

Additional observations from a re-analysis of the deposited data

How the results depend on the processing

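Genes called higher and lower numbered 150 and 65. They numbered 1321 and 753 with DESeq2, 4 and 0 when the 5 libraries were fitted alone (2280 at an unadjusted p below 0.05), and 27 genes were lower with edgeR's legacy method. The 4 were Agt, C4b, Serpina3m and Serpina3n. Leaving out 1 scrambled library in turn gave from 45 to 3441 genes higher and from 4 to 3467 lower, the highest without scrambled library 2. The fits without a sham library, which leave 1 in that group, are given above. Without a knockdown library, which enters through the filter, the scaling and the shared spread, 7 to 12 were higher and 0 to 2 lower. Other scalings and filters and limma-voom stayed within 1.5 times of both counts. With the replicate number as a block (replicate block) 14 were higher and 2 lower; deviations of same-numbered sham and scrambled libraries correlated at -0.02 and -0.06, and over the 7 same-numbered pairs of all 3 groups the highest was 0.17 (scrambled and knockdown libraries 3), so the libraries were not taken as paired. Of the single genes 1 turned its sign, Pdgfra: leaving out 1 library in turn gave it log2 changes from -0.0273 (without sham library 1) to 0.30 (without sham library 2). With 2 sham libraries, a mouse-to-mouse spread in sham is poorly known, and small changes were not detectable. The cause of these differences was not tested.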

Other observations

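Several genes not called were far higher in scrambled libraries 1 and 3 than in scrambled library 2 or sham; they were chosen after their values were seen. Trp53inp1, a stress protein, stood at 13.3 and 20.5 CPM in sham and at 639, 29.4 and 566 CPM in scrambled libraries 1, 2 and 3 (adjusted p = 0.0646). Txnip, which restrains glucose uptake, stood at 920 and 1153 against 8442, 1975 and 8683 CPM (adjusted p = 0.0578). Nampt, an enzyme of NAD salvage, stood at 27.8 and 47.1 against 601, 76.0 and 485 CPM (adjusted p = 0.0578). Angptl7, a secreted angiopoietin-like protein, stood at 67.5 and 148 against 2118, 97.7 and 1132 CPM, where scrambled library 2 lay within the sham range (adjusted p = 0.101).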
